A study of Homo sapiens with 30 samples.

Results

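The genes described here are IGF2BP1, IGF2BP2, IGF2BP3, LIN28B, HMGA1 and HMGA2, 6 of the 19775 genes that the array reads with probe sets of a single gene symbol. They were chosen by their single symbols as the IGF2BP family and its oncofetal companions, and IGF2BP2 was selected on its measured excess in the parental line, so that excess is given without a test. The 6 genes have 21 probe sets (groups of short probes against 1 transcript region), and each was read separately on all 30 arrays. The cells are KMS11, a human multiple myeloma line in which a chromosomal translocation puts the histone methyltransferase gene NSD2 (MMSET) under strong control elements. There are 10 lines with 3 separate cultures each, all of them KMS11. PAR is the parental line, without a knockout or a transgene, and TKO is labelled as an NSD2 knockout. The other 8 lines are called reconstituted in the series title, and each received a transgene: WT carries wild-type NSD2, CDM the catalytic dead mutant, H762Y the protein with that substitution, 526-1240 and 526-1365 the fragments between those residues, and MMSET1 the short isoform MMSET I. WT+MMSET1 and CDM+MMSET1 carry MMSET I beside the named NSD2. Each transgene was read in 1 line, and none of the lines given here is labelled as a vector control, so the effect of a transgene and other differences between lines cannot be told apart.

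The IGF2BP proteins are RNA-binding proteins that coat target mRNAs in the cytoplasm, steer where they are translated and protect them from decay, in part by reading the methylated base m6A. They are abundant in the embryo and are switched on again in many tumours, which is what oncofetal means; IGF2BP1 and IGF2BP3 are mostly silent in adult tissue, while IGF2BP2 stays on in several. LIN28B blocks the maturation of let-7 microRNAs, and let-7 in turn represses LIN28B, HMGA2 and the IGF2BP mRNAs. HMGA1 and HMGA2 are not RNA regulators in the strict sense: they are small chromatin proteins that bend AT-rich DNA, and they belong here as fellow let-7 targets and fetal genes.

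All values are log2 RMA values as deposited, where 1 unit doubles the signal, and levels of different probe sets are not compared with each other. A value under 5.01, the median of all values on all arrays, is called dim; RMA gives no call of presence. A probe set was tested if at least 3 arrays exceeded this median, which 9 of the 21 member probe sets did. A call is an adjusted p under 0.05 (limma, all 30 arrays, Benjamini-Hochberg over all 24552 probe sets tested). Most plasma cell markers were bright, with 6 of 8 above the median in all 10 lines, while SLAMF7 was dim in all. The monocyte list was dim in all (0 of 3, where 5 were listed). Above the median in all lines were also 1 of 4 T cell, 1 of 5 fibroblast, 2 of 5 epithelial and 2 of 3 erythroid markers. NSD2 itself still gave signal in TKO on all 6 of its probe sets (line means 7.39 to 10.18), with PAR minus TKO between -0.22 and 0.98, so its level does not mark the knockout on this array. Replicate 1 of H762Y stood apart: it correlated at 0.953 and 0.957 with the other H762Y arrays, which correlated with each other at 0.997. PAR replicate 1 correlated at 0.981 and 0.968 with the other PAR arrays (0.991 between those) and was the lowest PAR array on all 9 member probe sets that passed.

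The upstream sequences of IGF2BP2 and IGF2BP3 are shown because these are the members with called differences between lines. Each is the 250 bases before the start of the gene in the RefSeq tables (GRCh38.p14), on the gene's own strand; 4 of the 6 members had an entry, and IGF2BP1 and HMGA2 had none. IGF2BP2 lies on chromosome 3 at 185643130 to 185825042, minus strand, and the stretch printed is chr3:185825043-185825292. IGF2BP3 lies on chromosome 7 at 23310209 to 23470491, minus strand, and its stretch is chr7:23470492-23470741. Capitals mark GC boxes (GGGCGG on either strand, overlapping matches counted) in IGF2BP2 and E-boxes (CACGTG) in IGF2BP3.
IGF2BP2: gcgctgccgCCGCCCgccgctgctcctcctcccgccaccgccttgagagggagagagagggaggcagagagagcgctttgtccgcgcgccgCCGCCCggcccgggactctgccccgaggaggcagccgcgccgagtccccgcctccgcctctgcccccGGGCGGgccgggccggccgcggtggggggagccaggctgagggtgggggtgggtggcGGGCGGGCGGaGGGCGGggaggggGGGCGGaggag
IGF2BP3: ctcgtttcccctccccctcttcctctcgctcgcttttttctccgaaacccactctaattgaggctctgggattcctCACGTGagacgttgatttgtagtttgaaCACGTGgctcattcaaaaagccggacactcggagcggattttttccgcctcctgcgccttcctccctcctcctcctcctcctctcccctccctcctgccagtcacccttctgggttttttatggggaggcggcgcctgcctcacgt
The IGF2BP2 stretch is 81.6% G and C and holds 32 CpG dinucleotides, a count reached by 9.52% of promoters in the table. It has 7 GC box matches, and 42.6% of promoters have at least 1. A second IGF2BP2 entry, with its start site inside the gene at 185821142, is 32.8% G and C. That entry has 2 CpG and no GC box. Members without a called difference had stretches much like the first. HMGA1 has 30 CpG and 5 GC boxes before its gene start. LIN28B, which was not tested, has 33 CpG and 2 GC boxes at an entry inside the gene. Their second entries have 5 and 6 CpG and no GC box. The IGF2BP3 stretch is 56.8% G and C with 15 CpG (reached by 42.9% of promoters), has no GC box and carries 2 E-boxes, a motif found in 6.35% of promoters. A match is a string of letters only, and these data do not measure binding there.

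IGF2BP2 was the member with by far the widest range across the lines. On probe set 218847_at the parental cells read 8.76, 9.38 and 9.72 in their 3 cultures, and the knockout cells 4.86, 4.20 and 4.57. The parental arrays are all bright and the knockout arrays all dim, with no overlap. PAR exceeded TKO by 4.74 (SE 0.250), a 26.8-fold difference of array values, which is the value that chose the gene. Between these lines 27.8% of all probe sets with 1 symbol had arrays that did not overlap, and of the 19 member probe sets other than those of IGF2BP2 6 did: 3 higher and 3 lower in PAR.

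The signal was bright again in 4 of the 8 reconstituted lines. WT read 8.12, 8.21 and 8.19, and WT+MMSET1 8.22, 8.27 and 7.78. The shorter fragment line 526-1240 read 8.10, 8.51 and 7.96, and 526-1365 read 8.17, 8.49 and 7.97. All 12 of these arrays lie above every TKO array and below every PAR array. In bulk RNA, fewer cells with the transcript and less of it per cell cannot be told apart.

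The other 4 reconstituted lines read as dim as the knockout. CDM read 5.0, 4.87 and 4.26, and CDM+MMSET1 read 5.05, 4.11 and 4.78. MMSET1 alone read 4.97, 4.54 and 4.45, and H762Y read 4.27, 4.27 and 4.55. These 12 arrays overlap the TKO arrays, and 1 of them, CDM+MMSET1 replicate 1, reaches the median of all values. The H762Y replicate that stands apart on the whole array does not stand apart here. The lowest of the 15 bright arrays (7.78) and the highest of the 15 others (5.05) are 2.73 apart, with nothing between them.

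In order of line means IGF2BP2 ran from PAR (9.29) through 526-1365 (8.21), 526-1240 (8.19), WT (8.18) and WT+MMSET1 (8.09) to CDM (4.71), MMSET1 (4.65), CDM+MMSET1 (4.65), TKO (4.54) and H762Y (4.36). Only 2 neighbouring pairs in that order have arrays that do not overlap: PAR above 526-1365, by 1.08, and WT+MMSET1 above CDM, by 3.39. Differences against TKO were 3.63 for WT, 3.65 for 526-1240 and 3.66 for 526-1365, against 0.16 for CDM, 0.11 for MMSET1 and -0.18 for H762Y. These share the TKO arrays on which the gene was chosen and are a description. WT fell short of PAR by 1.11 (SE 0.250), 2.16-fold, with no overlap of arrays; 3 of the 19 member probe sets of other genes did not overlap there, and 28.8% of all probe sets.

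**Figure D1:**
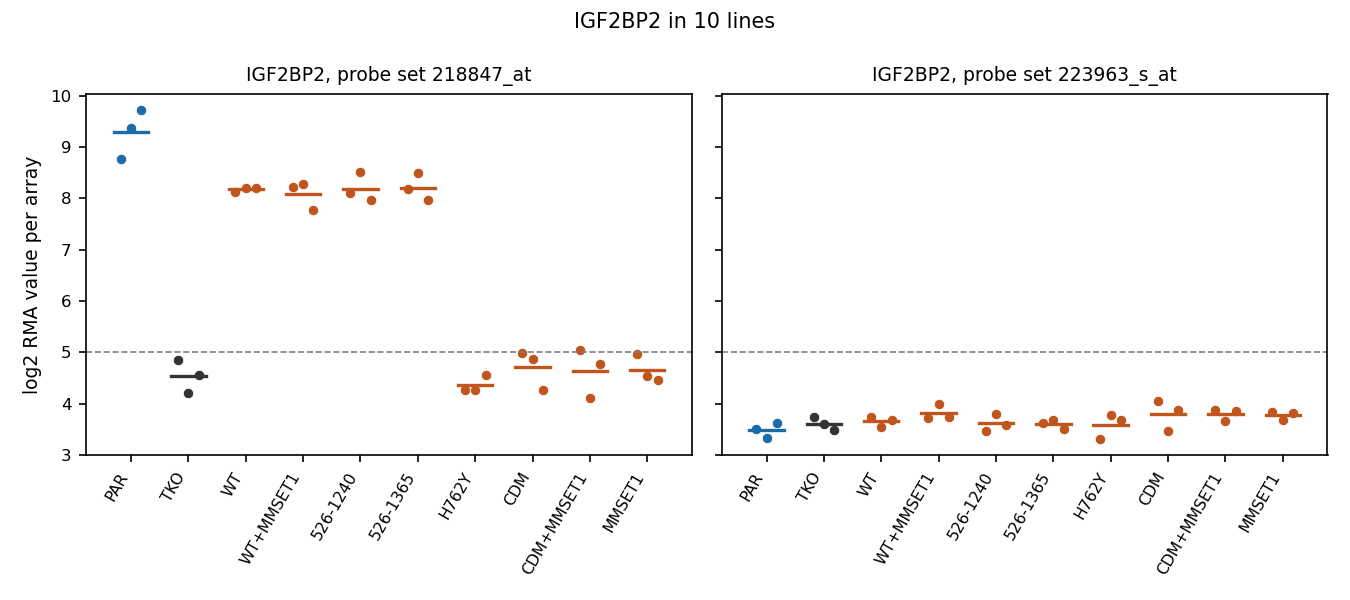
Log2 RMA value per array (points, 3 per line) and line mean (bar) of both IGF2BP2 probe sets in the 10 lines; the dashed line is the median of all values, 5.01. On 218847_at the arrays of PAR, WT, WT+MMSET1, 526-1240 and 526-1365 lie at or above 7.78 and all others at or below 5.05, while 223963_s_at stays between 3.31 and 4.05 everywhere.

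Comparisons that use neither PAR nor TKO could be tested. Because only the bright lines took IGF2BP2 past the filter, a difference between some lines was built in once it was tested. The p-values of bright against dim lines are therefore not independent evidence that the gene differs. WT exceeded CDM by 3.47 (SE 0.250; 95% interval 2.95 to 3.99), 11.1-fold, with limma adjusted p = 4.61e-10. With MMSET I present in both lines the difference was 3.45 (interval 2.92 to 3.97, adjusted p = 7.94e-10 in limma). The share of all probe sets called was 19.9% for WT against CDM and 30.1% for the pair with MMSET I. In the H762Y line IGF2BP2 was 3.81 below WT (interval -4.33 to -3.29, limma adjusted p = 8.76e-11), 14.1-fold, in a comparison that called 13.1% of probe sets. The 11.1-fold and 14.1-fold values are ratios of array values with a dim line, and the change of the RNA is not measured.

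Both fragment lines exceeded CDM, as WT did. The difference was 3.48 for 526-1240 (limma adjusted p = 3.40e-10) and 3.50 for 526-1365 (2.89e-10), where 17% and 16.1% of all probe sets were called. 526-1365 and WT differed by 0.03 (interval -0.49 to 0.55; limma adjusted p = 0.990), where 1.08% of probe sets were called, and the fragments from each other by 0.02 (interval -0.50 to 0.54), where 0.00407% were. The intervals allow differences of about 0.5 either way, under 1 log2 unit. All 5 called IGF2BP2 differences were called again under each of their 65 alternative settings, which reuse the same arrays. All 5 set a bright and a dim line against each other. These repeats are therefore not independent evidence that the gene differs.

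IGF2BP2 did not differ measurably between WT+MMSET1 and WT or between CDM+MMSET1 and CDM. The differences were -0.08 (interval -0.60 to 0.44) and -0.06 (interval -0.58 to 0.46), in comparisons that called 0.00407% and 0.0285% of all probe sets. The first of these minus the second, the interaction, was -0.02 (SE 0.354; interval -0.76 to 0.72). Across all probe sets this interaction called 0%, with 920 at an unadjusted p under 0.05 and no member among them.

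IGF2BP2 passed the filter only through the lines where it is bright, so once tested it had to differ between some lines. Its second probe set, 223963_s_at, read 3.31 to 4.05 on all 30 arrays, its line means spanned 0.33, and it was not tested. The pattern therefore rests on 1 of the 2 probe sets. The mean levels of the epithelial and erythroid marker lists differed along with it, each mainly through 1 gene. That of the fibroblast list differed along with it too, by less. The epithelial list averaged 5.64 to 5.82 in the 5 lines with bright IGF2BP2 and 5.09 to 5.35 in the other lines. Line means of EPCAM spanned 2.85 (6.71 to 9.56), those of KRT18 0.59, and those of KRT8, KRT19 and CDH1 0.24 to 0.26; KRT8 and EPCAM were above the median in all lines, and KRT19 and CDH1 in none. The erythroid list ran the other way, 5.15 to 5.38 against 5.52 to 5.68. There HBB spanned 1.26, ALAS2 0.14 and KLF1 0.26, with HBB and ALAS2 above the median in all lines and KLF1 in none. The part of other cell types in the IGF2BP2 pattern was not tested.

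IGF2BP3, a fetal RNA-binding protein often re-expressed in tumours, was bright in every line. In the main fit, which does not pair arrays, it had 16 called differences over 4 probe sets and 16 tested comparisons. The 4 sets read the same gene, so these calls are not independent results. All 16 were lower in the first line named, with TKO or CDM as the second. Of these, 15 were in comparisons of a line with bright IGF2BP2 against a dim one. The other 1 was between H762Y and TKO, where IGF2BP2 was dim in both. This split depends on the fit. With a replicate block CDM and MMSET1, also dim for IGF2BP2, were called below TKO on 216493_s_at, and H762Y was not. The comparisons with the 16 calls share the TKO or CDM arrays, and each called 7.58% to 21.2% of all probe sets lower. All 4 of its probe sets were tested, and on all 4 the lowest line was 526-1240. On 203819_s_at TKO read 10.81, 10.71 and 10.54, and CDM 10.43, 10.76 and 10.48. WT read 9.57, 10.36 and 9.87, lower on every array than the TKO and CDM arrays. The fragment lines had lower means, 9.59 and 9.69, and read 9.41, 9.93 and 9.45 in 526-1240 and 9.63, 10.02 and 9.41 in 526-1365, which overlap WT.

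Against TKO, WT was lower by 0.75 on 203819_s_at (SE 0.188; limma adjusted p = 0.00277) and by 1.06 on 216493_s_at (adjusted p = 0.000695), where 40.3% of all probe sets were called. On 216493_s_at TKO read 7.64, 7.68 and 7.37 and WT 5.86, 7.11 and 6.55, which do not overlap but spread widely within WT. The brightest set, 203820_s_at, had a difference of -0.41 that was not called (adjusted p = 0.0982 by limma), and 1569033_at gave -0.25. With an array left out 203820_s_at lay between -0.64 without WT replicate 2, which was called (limma adjusted p = 0.0141), and -0.27 without WT replicate 3 (0.343); array weights also called it (-0.57).

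The fragment lines gave the largest IGF2BP3 differences. 526-1240 was below TKO by 0.90 on 203820_s_at, 1.09 on 203819_s_at and 1.32 on 216493_s_at (limma adjusted p = 0.000886, 7.83e-05 and 6.80e-05). 526-1365 was below TKO by 0.75, 1.0 and 1.21 on the same sets (0.00444, 0.000205 and 0.000184). These are 3 of 8 member probe sets tested, all of them lower, where 19.7% and 19.5% of all probe sets were called lower; IGF2BP2 is not counted. All 6 calls held under every alternative setting tried. On 1569033_at the differences from TKO were -0.49 for 526-1240 and -0.37 for 526-1365, not called. Against WT itself 526-1365 was not called on any IGF2BP3 set, with differences of -0.33 to -0.12.

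The fragment lines were also called against the catalytic dead mutant on 203820_s_at, 203819_s_at and 216493_s_at. They were not called on 1569033_at, where 526-1240 minus CDM was -0.50. Of all probe sets, 8% were called lower in 526-1240 and 7.58% in 526-1365. 526-1240 was below CDM by 1.01 on 203820_s_at (limma adjusted p = 0.000749), 0.96 on 203819_s_at (0.00074) and 0.79 on 216493_s_at (0.0165). 526-1365 was below CDM by 0.85, 0.87 and 0.68 (0.00402, 0.00212 and 0.0412). On 216493_s_at these calls were lost without 526-1240 replicate 1 or 3 or CDM replicate 2 for the shorter fragment, with differences of -0.95 to -0.65 over the arrays left out. For 526-1365 they were lost without its replicate 1 or 3 or CDM replicate 1 or 2 (-0.80 to -0.54).

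WT against CDM gave 1 IGF2BP3 call, where 10.1% of all probe sets were called lower. 203819_s_at was lower by 0.63 (SE 0.188; limma adjusted p = 0.0229), while 203820_s_at (-0.52) and 216493_s_at (-0.53) were not called (0.0640 and 0.0964). The call was lost without CDM replicate 2 or 3 or WT replicate 1 or 3 (-0.84 to -0.44). Without WT replicate 2 203820_s_at reached -0.75 and 216493_s_at -0.83, both called, as both were with array weights. Without WT replicate 1 216493_s_at was -0.20 (limma adjusted p = 0.568), and without WT replicate 3 203820_s_at was -0.38 (0.241), so single WT arrays move these values widely. With MMSET I in both lines no IGF2BP3 probe set was called, and the differences ran from -0.37 to -0.13. The interaction was not called either: it was 0.46 on 203819_s_at, with an interval of -0.09 to 1.02.

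In the main fit, which does not pair arrays, lines in which IGF2BP2 was dim gave 1 called IGF2BP3 difference from TKO. H762Y was below TKO on 216493_s_at (-0.66; limma adjusted p = 0.0400), in a comparison that called 18.7% of probe sets; the call was lost without H762Y replicate 2 or 3 or TKO replicate 1 or 2 (-0.76 to -0.61 with an array left out), and with a replicate block (adjusted p = 0.0787). CDM (-0.53) and MMSET1 (-0.55) were not called on that set (adjusted p = 0.103 and 0.0918), where 18.9% and 18.1% of all probe sets were. In both of these pairs the replicate numbers pair the arrays, and with the replicate block both were called (limma adjusted p = 0.00714 and 0.00850). Line means of H762Y lay 0.34 to 0.79 above WT on all 4 IGF2BP3 sets, with none called; with array weights 3 of them were (203820_s_at 0.60, 203819_s_at 0.51 and 1569033_at 1.22). These values also moved with single WT arrays. Without WT replicate 2 203819_s_at (0.62) and 216493_s_at (0.69) were called, with limma adjusted p of 0.0367 for both, and without WT replicate 1 they were 0.22 and 0.07 (0.530 and 0.881). 203820_s_at lay between 0.21 without WT replicate 3 and 0.57 without WT replicate 2, not called in either.

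PAR, the brightest line for IGF2BP2, was not the lowest for IGF2BP3. On 203819_s_at PAR read 9.85, 10.48 and 10.41, with a mean of 10.25, the same as CDM+MMSET1. On 216493_s_at it read 6.84, 7.59 and 7.47, and its mean (7.30) was nearer to TKO (7.56) than that of any line with dim IGF2BP2 (6.90 to 7.03). PAR minus TKO was -0.44 on 203820_s_at and 203819_s_at, -0.27 on 216493_s_at and -0.06 on 1569033_at, as a description.

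Probe set 1569033_at showed a pattern of its own in H762Y. Its arrays read 6.34, 7.61 and 7.61, so the replicate that stands apart is 1.27 below the others. The difference from WT was 0.79 with it (limma adjusted p = 0.0561) and 1.21 without it (adjusted p = 0.000417), and that from TKO was 0.54 with it (0.183) and 0.96 without it (0.00548). MMSET1 read 6.55, 7.15 and 7.48, the next widest spread among lines on this set (SD 0.469, against 0.733 in H762Y).

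**Figure D2:**
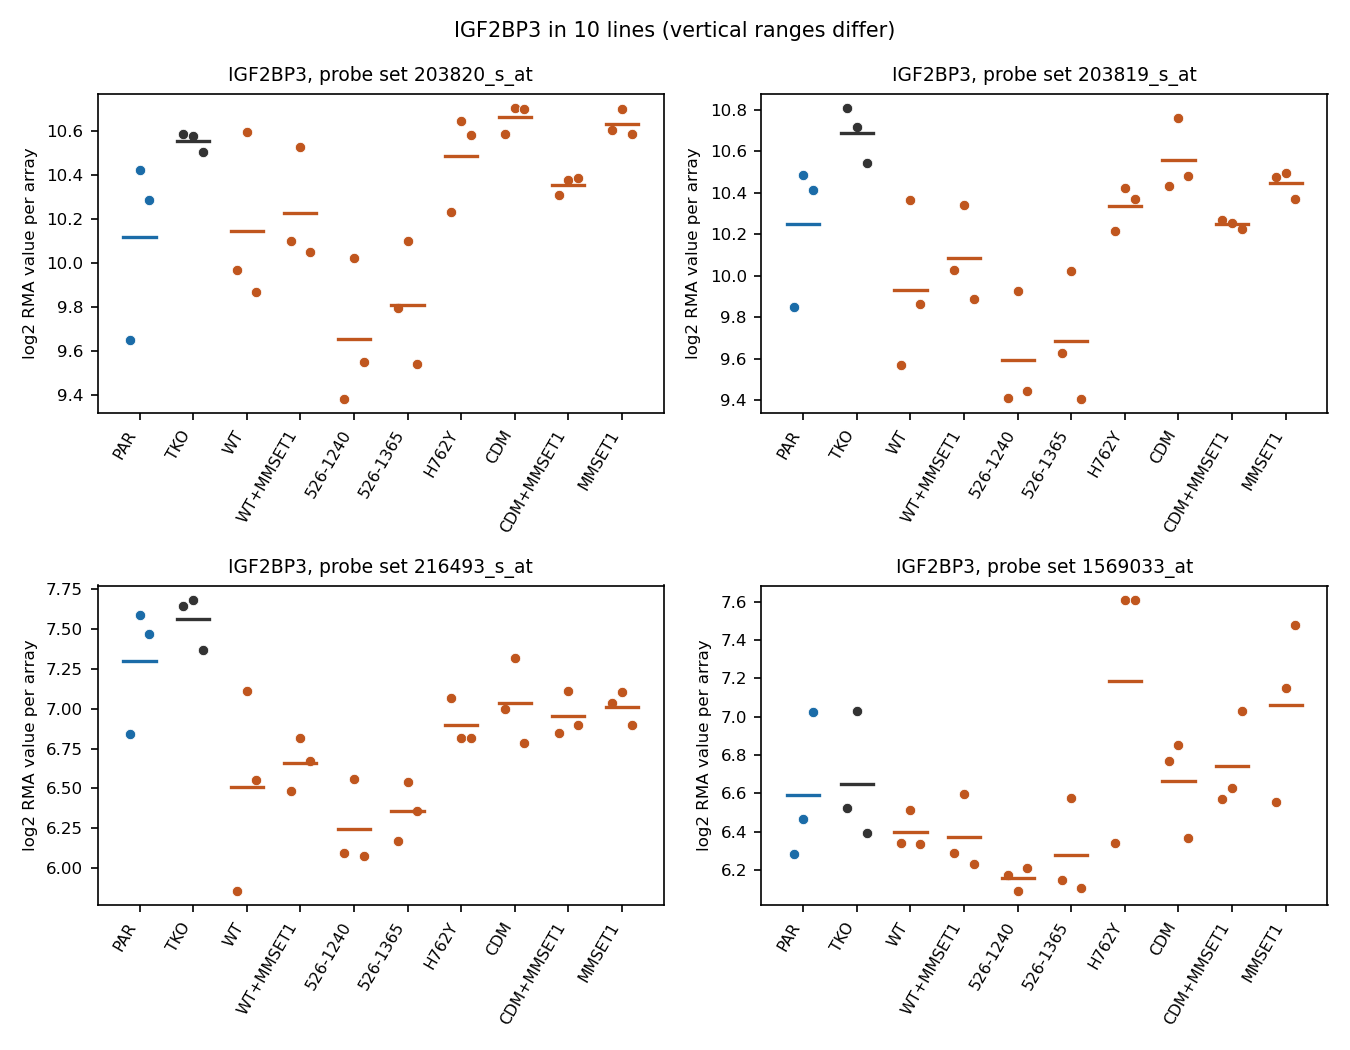
Log2 RMA value per array (points) and line mean (bar) of the 4 IGF2BP3 probe sets in the 10 lines, each panel with its own vertical range. 526-1240 has the lowest line mean in all panels, between 6.16 and 9.65, and replicate 1 of H762Y (6.34) lies far below the other H762Y arrays (7.61) on 1569033_at.

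Cultures also differed among themselves. Replicate 2 was the highest of the 3 arrays in 8 of 10 lines on 203820_s_at and 203819_s_at, in 9 on 216493_s_at and in 6 on 1569033_at. Line means of the 4 sets correlated with each other at 0.57 to 0.94 (Pearson r, 10 lines), and with IGF2BP2 at -0.81, -0.73, -0.50 and -0.76. These are points that share arrays and are a description.

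**Figure D3:**
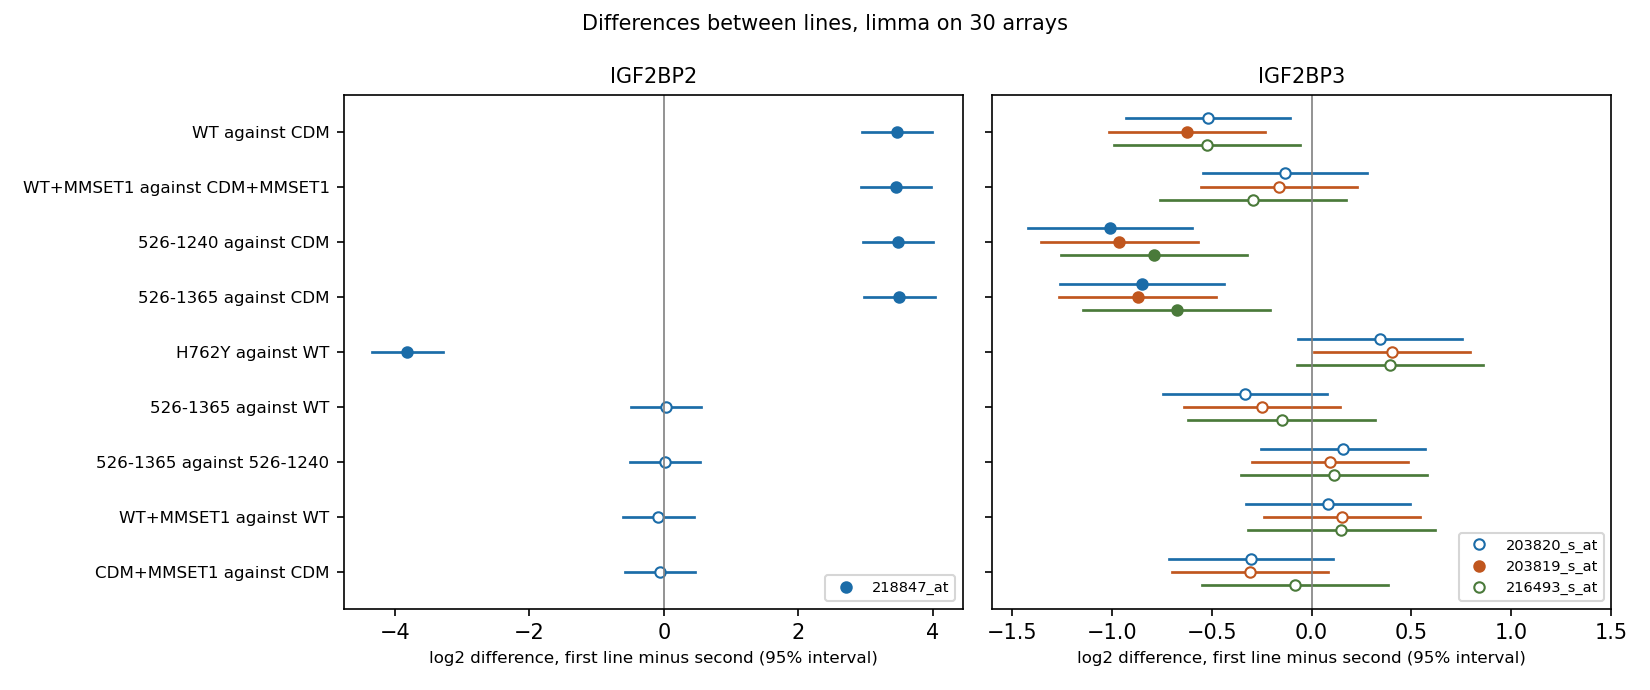
Log2 difference between lines, first minus second (points), with 95% intervals, for IGF2BP2 218847_at and 3 IGF2BP3 probe sets in 9 comparisons without PAR or TKO; filled points were called at an adjusted p under 0.05. IGF2BP2 lies near 3.5 against CDM, at -3.81 in H762Y against WT and near 0 elsewhere, and the called IGF2BP3 differences lie between -1.01 and -0.63.

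IGF2BP1, the founding member of the family and a stabiliser of MYC mRNA, was called in none of the tested comparisons. On 227377_at PAR read 5.48, 5.93 and 6.02 and TKO 6.24, 6.19 and 6.18, the reverse of IGF2BP2, with PAR the lowest line and no overlap. PAR was 0.39 below TKO and WT 0.39 above PAR, as a description. Among the other 9 lines the means ran from 6.10 in CDM to 6.37 in 526-1240. On 223689_at PAR was also the lowest line (5.11), the means of all lines spanned 0.45, and WT against TKO reached -0.35 without a call (limma adjusted p = 0.0564). That difference was called in 4 of 12 alternatives: without WT replicate 1 (-0.49, adjusted p = 0.0159), without TKO replicate 2 (-0.44, 0.0396), with arrays centred on their medians (-0.37, 0.0444) and with the replicate block (-0.35, 0.0470). Without WT replicate 2 it was -0.26 (adjusted p = 0.200). The same set was called in WT+MMSET1 against CDM+MMSET1 without CDM+MMSET1 replicate 3 (-0.45, adjusted p = 0.0320) and in H762Y against WT with array weights (0.37, 0.0185), and 227377_at in 526-1240 against CDM with array weights (0.27, 0.0130). The third set, 241574_s_at, was dim on all arrays, from 3.11 to 3.82.

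HMGA1 was bright in all lines and was called in no comparison, though array weights called 206074_s_at in 6. On 206074_s_at PAR read 9.08, 9.55 and 9.94, and its mean (9.53) was the highest of all lines, with overlap. The line means spanned 0.52 on this set and 0.33 on 210457_x_at. The fragment lines exceeded CDM by 0.39 and 0.43 with no overlap of arrays, which did not reach a call (limma adjusted p = 0.222 and 0.184) but did in fits of only those lines (0.0465 and 0.0297). H762Y replicate 1 read 8.36 against 9.50 and 9.52 in the other replicates. H762Y against WT was 0.12 with it and 0.51 without it, the latter called (adjusted p = 0.0216 by limma).

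HMGA2 was dim on all 9 of its probe sets on every array. On 208025_s_at PAR read 3.53, 3.82 and 4.74, and the other 27 arrays lay between 2.57 and 3.09. PAR stood above all of them here, as 2.34% of all probe sets with 1 symbol did, and PAR exceeded TKO by 1.20 (SE 0.185) and WT by 1.17. Without 1 PAR or TKO array at a time, PAR minus TKO lay between 0.85 and 1.45. No reconstituted line shared this excess, and WT exceeded TKO by 0.03. On the other 8 HMGA2 sets, at 2.15 to 4.24, line means spanned at most 0.34, and on none of them did PAR stand above all other arrays. A difference between dim values is one of array signal, and the change of the RNA is not measured.

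LIN28B was dim too: 229349_at, its only probe set, read 2.56 to 3.24 on the 30 arrays. With the dim sets counted and IGF2BP2 left out, arrays of 11 of 19 member probe sets did not overlap between 526-1240 and CDM (6 higher and 5 lower). Of all probe sets with 1 symbol, 14.4% were apart and higher there and 15.3% apart and lower. The count of 11 was the largest among the comparisons. Of the 19 sets 9 are of HMGA2 alone, and sets of 1 gene are not separate members. Between WT and CDM 2 of 19 did not overlap (0 higher, 2 lower), against 13.7% and 15.8%.

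**Figure D4:**
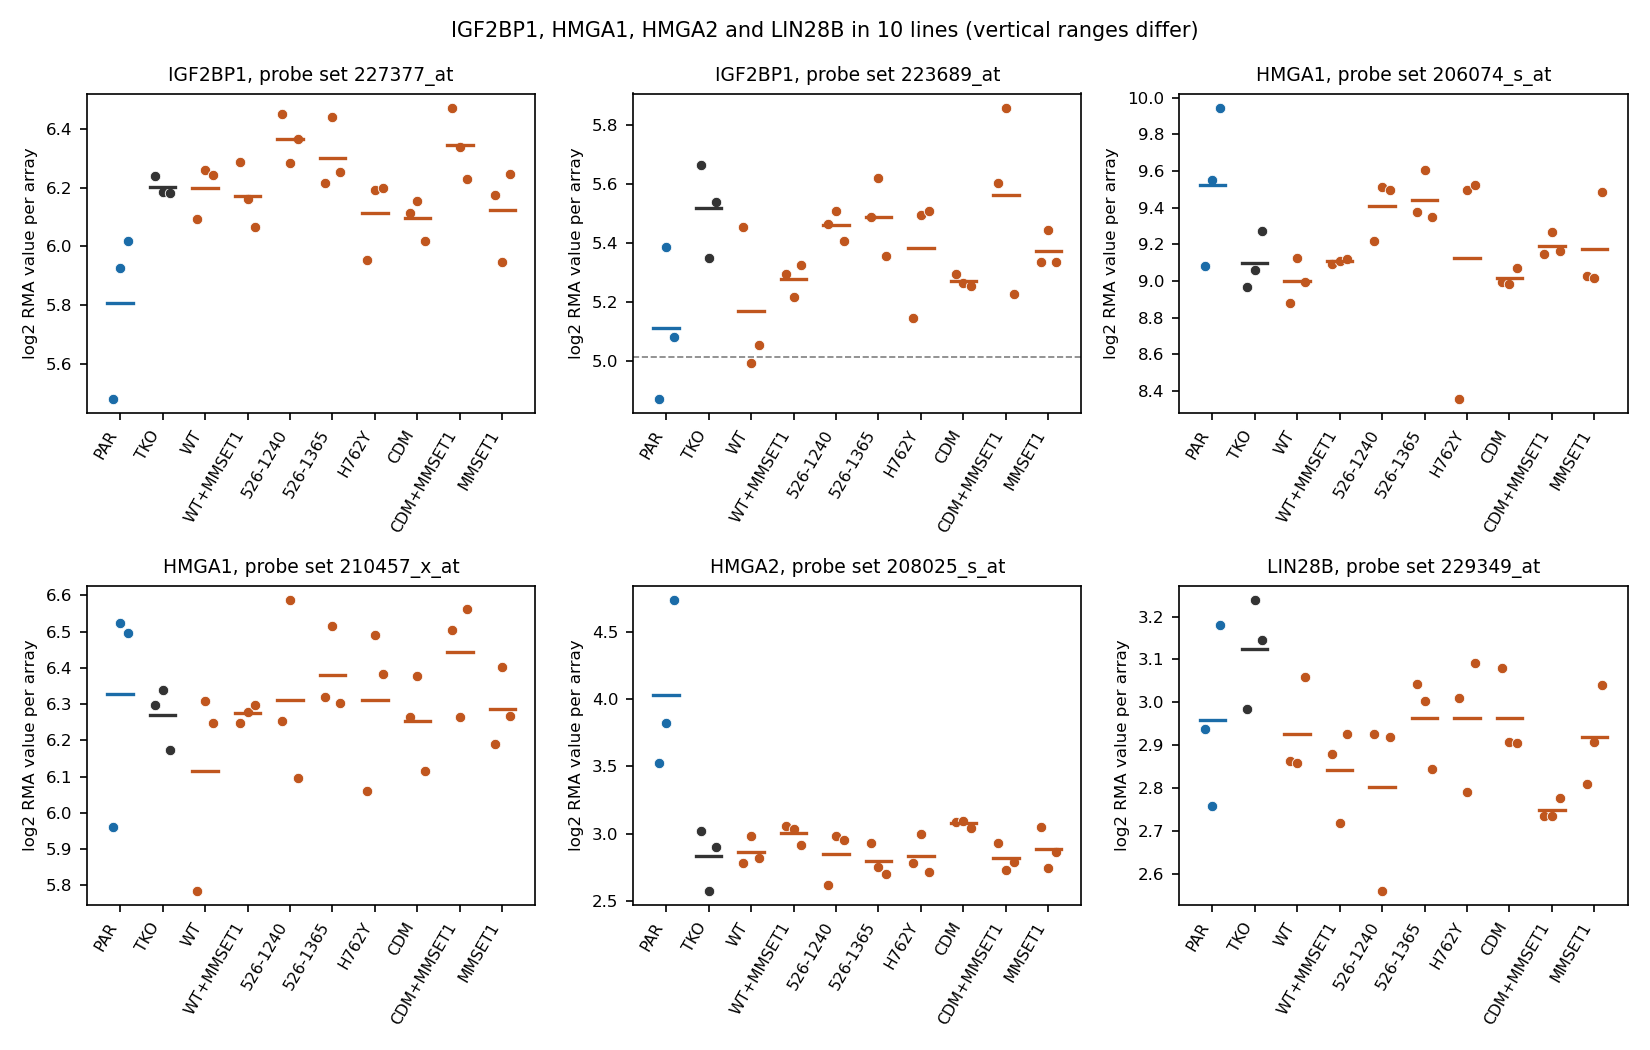
Log2 RMA value per array (points) and line mean (bar) of probe sets of IGF2BP1, HMGA1, HMGA2 and LIN28B in the 10 lines, each panel with its own vertical range; the dashed line is the median of all values, 5.01, where it falls in the panel. PAR stands above all other arrays on HMGA2 208025_s_at (3.53 to 4.74) and has the lowest line mean on both IGF2BP1 sets, 5.81 and 5.11.

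Genes whose line means followed IGF2BP2 most closely were PCSK5 (Pearson r 0.999), TBC1D9, RRAS2, MID1 (0.997 each) and EPS8 (0.997). They were taken from 4543 tested probe sets of other genes whose line means spanned at least 1 log2 unit. Over the 9 lines without PAR the closest genes were PCSK5 (0.999), YAP1 (0.999), PEAK1, DPP10 and MPPED2 (0.997 each), among 3643 probe sets. PCSK5, which encodes a proprotein convertase, read 7.74 in PAR, 6.97 in WT, 4.30 in CDM, 4.09 in H762Y and 4.19 in TKO. For IGF2BP3 203820_s_at the closest genes were LBH (0.980), CNOT3 (0.976), CASP6, GCNT1 (0.969 each) and SYNDIG1 (0.967). LBH read 9.52 in TKO, 9.53 in CDM, 8.38 in WT and 7.39 in 526-1240. The points are line means from the same arrays, so the correlations carry no test.

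Partners of the IGF2BP proteins in RNA granules were counted on the brightest probe set of each gene. In WT against CDM 4 of 12 were lower and 0 higher, where 10.1% of genes were lower and 11.6% higher. SYNCRIP, an mRNA-binding protein found with IGF2BP1, was lower by 1.08 (SE 0.357), the stress granule protein G3BP1 by 0.60 (0.163), the RNA helicase DHX9 by 0.59 (0.185) and the mRNA stabiliser ELAVL1 by 0.50 (0.127), with limma adjusted p of 0.0363, 0.0141, 0.0277 and 0.00886. With MMSET I in both lines 6 were lower and 1 higher (background 15.5% and 15.8%), SYNCRIP by 1.24 and DHX9 by 0.75. The median of the 12 was -0.24 in WT against CDM, against -0.02 over all genes tested. In WT against TKO only HNRNPU and FMR1 were called, both higher (0.21 and 0.34), while the list's median was -0.20.

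Genes that write, erase or read m6A, the mark that IGF2BP proteins recognise, gave 8 calls among 13 in WT against TKO: 7 were higher and 1 lower, where 21.3% of genes were higher and 19% lower. CBLL1 (1.12), ZC3H13 (0.62) and WTAP (0.54), subunits of the writer complex, and the reader YTHDF3 (0.59) had the largest values, and RBM15B was lower (-0.36). The median of the 13 was 0.45, against a median near 0 over all genes. Other lines shared this excess over TKO, with and without bright IGF2BP2. Of the 13 genes 6 were higher in CDM (10.1% of genes were), 7 in H762Y (8.81%), 6 in MMSET1 (9.3%), 8 in 526-1240 (20.7%) and 7 in 526-1365 (20.3%); these comparisons share the TKO arrays. In WT against CDM 1 of 13 was called, RBM15, higher by 0.40.

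mRNAs reported as bound by IGF2BP proteins gave 3 calls among 8 in WT against TKO, near the share of all genes. IGF1R, the receptor of the IGF axis and also a let-7 target, was higher in WT than in TKO by 1.47 (SE 0.128; limma adjusted p = 7.81e-09), ACTB was lower by 0.59 and BTRC higher by 0.48, 3 of 8 in all, where 40.3% of genes were called in either direction. In WT against CDM, where 21.7% of genes were called, only CTNNB1 was called of 8 (-0.37), and IGF1R reached 0.31 without a call; with MMSET I in both lines IGF1R was called (0.83).

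Calls among the let-7 genes are set beside those of all genes, of which 21.7% were called in WT against CDM and 40.3% in WT against TKO. Of 15 tested let-7 processing genes WT against CDM had 2 higher, AGO4 (1.12) and TUT4 (0.45), and 2 lower, XPO5 (-0.50) and DROSHA (-0.42). Against TKO 3 were higher and 3 lower, with AGO4 at 1.79, DIS3L2 at 0.77, AGO2 at -0.58 and KHSRP at -0.54. With MMSET I in both lines 9 of 15 were called, 3 higher and 6 lower, where 31.3% of genes were. Of 11 other let-7 targets 3 were called against CDM, TGFBR1 (0.39), AURKB (0.36) and HRAS (-0.60). Against TKO 3 were higher and 3 lower, led by IGF1R and HRAS (-1.24). Mature let-7 is not read by these probe sets.

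Of 6 other oncofetal genes 2 were called in WT against CDM and 3 in WT against TKO, and of 8 other high mobility group genes 1 and 2, beside 21.7% and 40.3% of all genes. PLAC1, a placental gene, was higher in WT than in CDM (2.48, SE 0.649, limma adjusted p = 0.0109) and than in TKO (2.48, 0.00405). AFP was lower than in CDM (-0.39). CEACAM5 (0.25) was higher and SALL4 (-0.29) lower than in TKO. Among the high mobility group genes HMGB2 was higher in WT than in CDM (0.29) and TKO (0.33), and HMGB3 was lower than in TKO (-0.50).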

How the data were processed

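The deposited table gave 54613 probe sets on 30 HG-U133 Plus 2.0 arrays. Its log2 values were computed by the authors with RMA, per the submitters' processing notes and the series design text. Which version and probe definition they used is not given here. RMA quantile normalization forces arrays to one distribution (array medians 4.99 to 5.04), and no further scaling was applied. The 3 arrays of each line come from separate cultures, per the design text, and so small a number limits precision.

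Probe sets were named from the platform annotation: 41091 had 1 symbol, 1801 had several and 11721 were not listed. limma 3.58.1 in R 4.3.3 fitted a mean per line to all arrays (20 residual degrees of freedom), with 16 tested comparisons and 2 described ones (those with PAR); the fit was checked on simulated data. SE are the fit's moderated ones. The 95% intervals take these SE with a t quantile at 20 degrees of freedom, so they do not match the moderated p-values exactly. Members, lists and comparisons were chosen with earlier results of these data known. IGF2BP2 was tested in the 10 comparisons without PAR or TKO.

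Named list genes are up to 4 per list with the largest differences among those called in WT against CDM and in WT against TKO. RBM15B and the values with MMSET I present were added after they were seen. Likeness names the 5 genes with the highest Pearson r of line means. Replicate numbers were taken to pair the arrays of 2 lines where residuals of every same-numbered pair correlated above 0.1. This pairing comes from the data, not the labels. It held for CDM, MMSET1 and PAR against TKO, WT against CDM, 526-1365 against WT and against 526-1240, and WT+MMSET1 against WT (lowest correlations 0.102 to 0.479).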

Additional observations from a re-analysis of the deposited data

How the results depend on the processing

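The 21 called member differences were recomputed under 261 alternatives: no filter, the brightest probe set per gene, median-centred arrays, a variance trend, array weights, a fit of only the lines compared, that fit with a replicate block, and each array left out. Of these 242 kept direction and call, and none reversed; array weights were estimated gene by gene because the default estimate did not converge. IGF2BP2 kept all 65 of 65, all between bright and dim lines, where its passing the filter had built in a difference. IGF2BP3 kept 177 of 196. The 216493_s_at difference of H762Y from TKO stayed at -0.66 but was not called without the filter (adjusted p = 0.0552) or with the replicate block (-0.66, 0.0787), and lay between -0.76 and -0.61 with an array left out. For 526-1365 against CDM the same set (-0.68) was not called without the filter (0.0530) and lay between -0.80 and -0.54. 526-1240 against CDM lay between -0.95 and -0.65 there. 203819_s_at in WT against CDM (-0.63) was not called in a fit of only those lines (0.0529) and lay between -0.84 and -0.44. The cause of these losses was not tested. Of the member differences that were not called, 44 alternatives brought a call, 21 of them under array weights. The share of all probe sets called moved by over 1.5 times in 15 of 16 comparisons without the filter. There it was 24.6%, 10.4%, 10.1%, 23.8%, 23.6% and 9.9% for WT, CDM, H762Y, 526-1240, 526-1365 and MMSET1 against TKO. It was 10.6%, 10.1% and 9.37% for WT and the fragments against CDM, 17.2% for WT+MMSET1 against CDM+MMSET1, 6.89% for H762Y against WT and 0.584% for 526-1365 against WT. It was 0.00243% between the fragments and for WT+MMSET1 against WT, and 0.0122% for CDM+MMSET1 against CDM. Array weights moved 12. They gave 35.4% for CDM and for MMSET1 against TKO, 43.7% for H762Y against TKO, 38.3%, 39.7% and 37.8% for WT and the fragments against CDM, 45.2% for WT+MMSET1 against CDM+MMSET1, 52.1% for H762Y against WT, 2.53% for 526-1365 against WT, 0.0122% and 4% for MMSET I added to WT and to CDM, and 0.0692% for the interaction. With only the lines compared it was 5.51% for H762Y against TKO, 1.67% for H762Y against WT, 0.11% for 526-1365 against WT, and 0% between the fragments and for MMSET I added to WT or to CDM. With the replicate block it was 0% for H762Y against TKO, between the fragments and for MMSET I added to WT or to CDM, 2.01% for H762Y against WT and 30.5% for CDM against TKO. With 1 probe set per gene it was 0% between the fragments, and 0.0152% and 0.0457% for MMSET I added to WT and to CDM; a variance trend gave 0% for WT+MMSET1 against WT. Leaving out 1 array gave 4.22% (without H762Y replicate 2) to 36.7% (without H762Y replicate 1) for H762Y against WT, 9.14% to 21.4%, 10.5% to 20% and 8.73% to 20.5% for WT, 526-1240 and 526-1365 against CDM, 18.2% to 26.8% for WT+MMSET1 against CDM+MMSET1, 0.611% to 0.99% for 526-1365 against WT, 0% to 0.00407% for WT+MMSET1 against WT and for the interaction, and 0.00407% to 0.0204% for CDM+MMSET1 against CDM. The cause of these moves was not tested. A line of 3 arrays resolves IGF2BP2 to about 0.5 log2 units.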

Other observations

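Some transcripts next to the members in name were read after their values were seen. IGF2BP2-AS1, an antisense transcript, was dim on all 4 of its probe sets in every line (2.35 to 3.95), also where IGF2BP2 was bright. LIN28B-AS1 read 5.43 to 6.05 on 244175_at on all 30 arrays, above the median where LIN28B was dim. The probe set named for MIRLET7D, 227793_at, had its highest line means in CDM+MMSET1 (7.64) and CDM (7.41), against 6.99 in WT+MMSET1 and 6.86 in WT; mature let-7 is not measured. These values were not tested.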
